A study of Mus musculus with 28 samples.

Results

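The 10 genes described here encode the contractile machinery of the heart muscle cell and its calcium release channel: *Myh6*, *Myh7*, *Tnnt2*, *Tnnc1*, *Tnni3*, *Actc1*, *Actn2*, *Myl2*, *Myl7* and *Ryr2*. They were chosen by name and all 10 were found among the 22219 protein-coding gene symbols of the mm9 mouse annotation. In a sarcomere, myosin heavy chains with their light chains pull on thin filaments of actin, and the troponin complex on the thin filament lets them do so when calcium arrives. The calcium comes from the sarcoplasmic reticulum through the ryanodine receptor Ryr2, and alpha-actinin anchors the thin filaments at the Z-disc. These genes are abundantly expressed in beating cardiomyocytes, a stage later than the mesoderm cultures studied here.

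The cultures were mouse embryonic stem (ES) cells that had been differentiated as embryoid bodies and then exposed for 40 h to VEGF, Activin A and BMP4, and were collected at day 4. All samples are labelled with the line Brg1f/f; Actin-CreER, in which both copies of *Brg1* (an ATPase of BAF chromatin remodelling complexes) are floxed and Cre is expressed constitutively. Control cultures received the solvent tetrahydrofuran (THF) alone from day 2, and *Brg1*-deleted cultures received 200 nM 4-hydroxytamoxifen (4-OHT) in THF. The BRG1-FLAG samples carry the same line label, whereas the study describes Brg1-FLAG ES cells for this experiment, assayed in biological duplicate, where a further FLAG replicate is deposited. They have no 4-OHT arm. Deletion took place in the whole culture, and the loss of Brg1 after 4-OHT was not measured in these lists. The study reports a strong fall of *Brg1* RNA in deleted cultures. It shows near-complete loss of the protein by western blot at a time later than 40 h, and proposes that residual Brg1 activity might remain during mesoderm induction.

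Of 28 samples, 17 have a list of enriched regions: 2 control and 2 4-OHT replicates for H3K27ac, 3 and 3 for H3K27me3, 2 and 2 for Suz12, and 3 for BRG1-FLAG. H3K27ac is an acetyl mark of active promoters and enhancers, H3K27me3 is the methyl mark laid down by Polycomb repressive complex 2, and Suz12 is a subunit of that complex. Each list gives only the position of every region, so the value used throughout is the covered length, the number of base pairs of a window that a list covers, and read depth is unknown. The H3K27ac lists hold 32161 to 41062 regions and the Suz12 lists 2913 to 4016. The H3K27me3 lists hold 6787 to 16959 regions, and replicate 1 of both conditions stands apart, with no region wider than 9300 bp in control and 7550 bp in 4-OHT, against 33350 to 94725 bp in the other 4. FLAG replicates 1 and 2 hold 8021 and 8257 regions, but replicate 3 holds 192. A mark was called present where at least 2 control replicates listed a region.

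The label of the cultures was checked against marker genes of mesoderm and other lineages. Within 5 kb of the transcriptional start site (TSS), H3K27ac was present at 11 of 12 mesoderm markers, 0 of 7 neural markers and 0 of 8 endoderm markers. It was also present at 5 of 8 pluripotency markers, *Pou5f1*, *Nanog*, *Sox2*, *Klf4* and *Tdgf1*, and at 2 of 8 blood and endothelial markers, *Runx1* and *Etv2*. *Pou5f1*, a transcription factor of pluripotent cells, had 6250 bp in each control list and 6050 and 6625 bp in 4-OHT. Of 6 pluripotency markers with a region, both 4-OHT lists were below both control lists at 1, *Nanog*, and above at 2, *Sox2* and *Klf4*. Over all genes with a region these shares were 12.5% and 39.8%. *Nanog* had 3990 and 4265 bp in control and 3140 and 3540 bp in 4-OHT. H3K27me3 was present at 6 of 12 mesoderm, 7 of 7 neural, 5 of 8 endoderm, 3 of 8 pluripotency and 2 of 8 blood and endothelial markers.

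These 4 stretches of mm9 sequence are shown because the results turn on CpG content and on marked against unmarked stretches. CG dinucleotides are in capitals in each. The *Tnnt2* and *Actn2* sequences run from 250 bases before to 49 bases after the annotated TSS. The *Ryr2* stretch is intronic, 649 to 948 bases downstream of the TSS, and was covered in full by 7 of the 10 H3K27me3 and Suz12 lists. The *Actc1* stretch is the region that FLAG replicate 2 listed in an intron of the noncoding gene RP23-230H3.2, at -14.6 kb.
Tnnt2 start (chr1:137737202-137737501, plus strand): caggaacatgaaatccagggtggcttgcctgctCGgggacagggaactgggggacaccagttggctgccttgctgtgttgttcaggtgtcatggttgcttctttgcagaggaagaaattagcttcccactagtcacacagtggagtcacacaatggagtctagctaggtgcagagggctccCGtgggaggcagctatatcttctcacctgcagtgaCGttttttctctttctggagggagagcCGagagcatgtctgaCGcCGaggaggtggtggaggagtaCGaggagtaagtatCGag
Ryr2 intron (chr13:12198264-12198563, minus strand): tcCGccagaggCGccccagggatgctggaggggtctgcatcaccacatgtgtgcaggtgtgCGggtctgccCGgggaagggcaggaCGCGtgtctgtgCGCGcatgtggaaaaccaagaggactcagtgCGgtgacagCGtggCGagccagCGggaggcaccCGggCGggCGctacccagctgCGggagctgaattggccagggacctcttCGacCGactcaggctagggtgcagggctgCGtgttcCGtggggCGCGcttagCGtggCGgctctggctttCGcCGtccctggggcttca
Actn2 promoter (chr13:12432978-12433277, minus strand): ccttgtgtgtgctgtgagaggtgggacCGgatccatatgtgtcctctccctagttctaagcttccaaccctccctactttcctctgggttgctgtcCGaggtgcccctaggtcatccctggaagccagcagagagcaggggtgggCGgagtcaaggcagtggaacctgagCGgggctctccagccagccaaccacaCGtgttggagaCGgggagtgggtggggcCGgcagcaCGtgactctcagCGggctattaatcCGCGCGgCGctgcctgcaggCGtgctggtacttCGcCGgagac
Actc1 upstream (chr2:113893176-113893350, minus strand): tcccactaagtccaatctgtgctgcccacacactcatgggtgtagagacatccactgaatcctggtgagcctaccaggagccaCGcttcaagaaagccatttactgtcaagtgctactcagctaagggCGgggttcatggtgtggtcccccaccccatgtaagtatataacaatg
The *Tnnt2* start holds 8 CG dinucleotides in 300 bases, the *Ryr2* stretch 26 and the *Actn2* promoter 16, and the 175 bases upstream of *Actc1* hold 2.

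Most of the cardiac genes carried neither mark at their start in control cultures. H3K27ac was present within 5 kb of the TSS at 2 of 10 genes, *Tnnt2* and *Tnnc1*, where 47.7% of all protein-coding genes had it. H3K27me3 was present at 1 of 10, *Ryr2*, against 14.0% of all genes. Suz12 was present at 0 of 10 (5.91% of all genes) and Brg1 at 0 of 10 (4.00%). Thus 7 of 10, namely *Myh6*, *Myh7*, *Tnni3*, *Actc1*, *Actn2*, *Myl2* and *Myl7*, had neither H3K27ac nor H3K27me3, a state found at 42.1% of all genes. No member carried both marks together, a state found at 3.78% of all genes. The 10 genes are too few for these shares to be compared closely with the background, and no test was made of the difference.

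**Figure D1:**
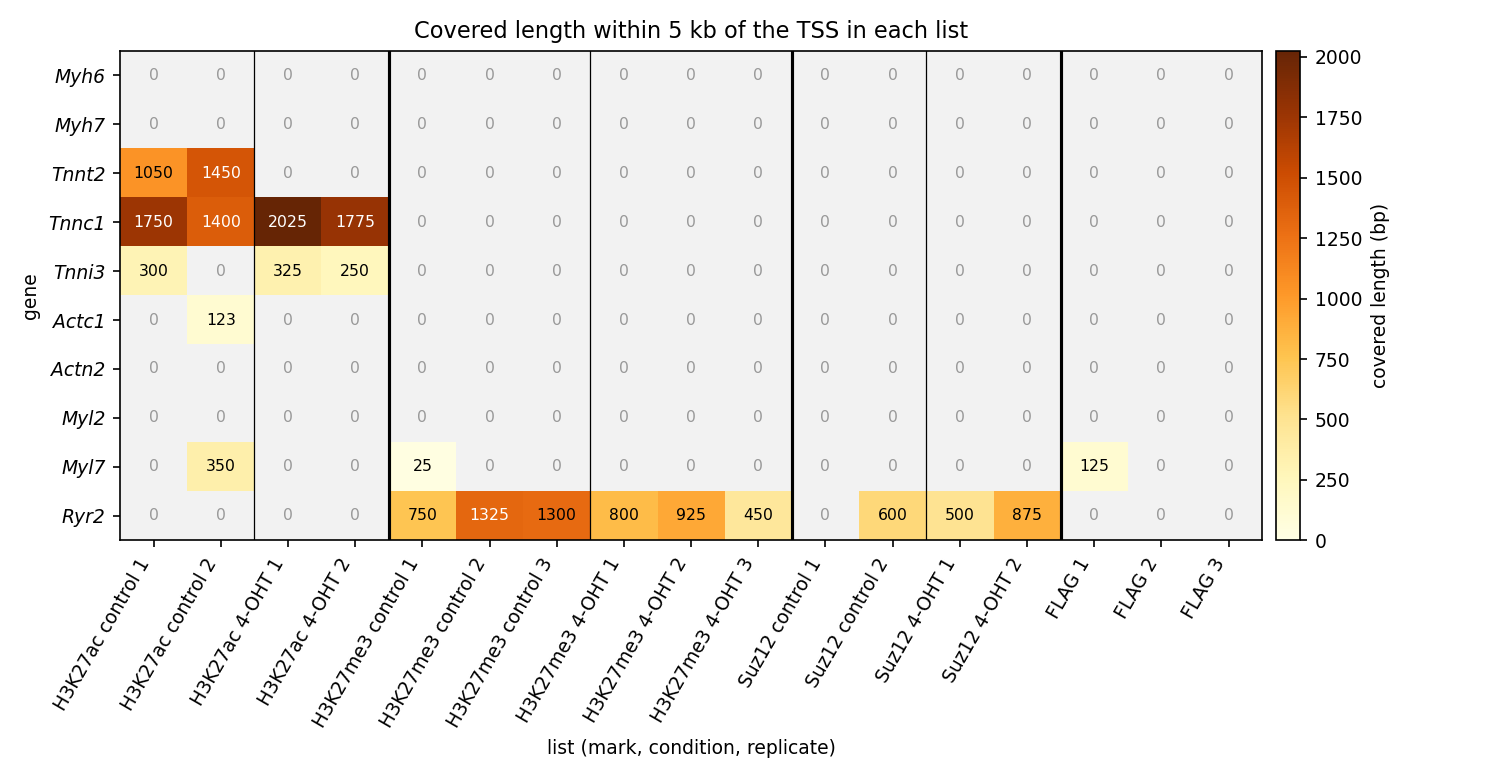
Covered length in bp (number and shade) within 5 kb of the TSS of each gene (rows) in each of the 17 lists (columns, by mark, condition and replicate). *Tnnc1* has 1400 to 2025 bp of H3K27ac in all 4 lists, *Tnnt2* only in the 2 control lists, *Ryr2* has H3K27me3 in all 6 lists, and *Myh6*, *Myh7*, *Actn2* and *Myl2* are at 0 in all 17.

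A looser count shows where single lists placed a region. With a region in any 1 control list, H3K27ac was found at 5 of 10 genes (51.5% of all genes), with *Tnni3*, *Actc1* and *Myl7* added. On the same rule H3K27me3 was found at *Myl7* and *Ryr2* (18.0%), Suz12 at *Ryr2* (7.40%) and Brg1 at *Myl7* (14.0%). In at least 2 4-OHT lists, H3K27ac was found at *Tnnc1* and *Tnni3* (48.2%), H3K27me3 at *Ryr2* (11.9%) and Suz12 at *Ryr2* (7.80%). At *Actc1* and *Myl7* the added control H3K27ac came from control replicate 2 alone, with 123 and 350 bp.

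*Tnnt2*, which encodes cardiac troponin T, the subunit that ties the troponin complex to tropomyosin, was the single member with H3K27ac over its own start. The gene lies on the plus strand at chr1:137737452-137748837. The merged region spanned chr1:137736901-137738350, from -551 to 898 bp relative to the annotated TSS. Control replicates 1 and 2 had 1050 and 1450 bp within 5 kb of the TSS, and both 4-OHT replicates had 0 bp. The control and 4-OHT lists therefore did not overlap, with a mean of 1250 ± 283 bp (SD, n = 2) in control. The two-sided exact permutation test gave p = 0.333, the smallest that 2 against 2 replicates allow. In a limma fit across 11283 genes on log2(covered bp + 25), the difference was -5.65 (SE 0.37), with a Benjamini-Hochberg adjusted p of 0.102. The size of this log2 difference depends on the 25 bp added, since both 4-OHT lists are at 0. Under the alternatives of that fit that kept every list, the adjusted p ranged from 0.046 to 0.155. The value of 0.046 came with covered length taken as a share of each list. With each list left out in turn, leaving a single list in a group, the log2 difference ranged from -5.88 to -5.43.

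A complete absence in both 4-OHT lists was uncommon. Of 10589 genes with H3K27ac in both control lists, 235 (2.22%) had none in either 4-OHT list, and 153 genes showed the opposite pattern. The median control length of those 235 genes was 362 bp, and 20 of them, *Tnnt2* included, had a mean of at least 1250 bp. Among 20 other sarcomere genes of the heart, *Ttn* (titin, the elastic filament of the sarcomere) was the other such gene. Its control lists had 25 and 575 bp, so control replicate 1 held a single small stretch. This count was added, and *Ttn* singled out, after the values had been seen. The annotation begins *Tnnt2* at its start codon, so the untranslated first part of the transcript is missing from the gene model and the promoter proper may lie farther upstream.

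H3K27ac was also shorter at part of the mesoderm markers. Of 11 markers with the mark, both 4-OHT lists were below both control lists at 6 and above at 0, where 12.5% of all genes with a region were below. Their summed covered length was 34716 and 47365 bp in control and 25493 and 36140 bp in 4-OHT, which overlapped, and *Tbx6* had the longest in all 4 lists. *Mesp1*, a transcription factor of early cardiac mesoderm, had 5227 and 6876 bp in control and 3576 and 4551 bp in 4-OHT. Of 3 blood and endothelial markers with H3K27ac, both 4-OHT lists were below both control lists at 2, *Runx1* and *Etv2*, and above at 0. Their summed length was 6025 and 8000 bp in control and 1725 and 3425 bp in 4-OHT, without overlap. The summed length of the pluripotency markers was higher in 4-OHT, with 21365 and 20640 bp in control and 23017 and 23654 bp in 4-OHT. The part of these marker groups in the *Tnnt2* result was not tested. In bulk cultures, fewer cells with a mark and less of the mark in each cell cannot be told apart.

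**Figure D2:**
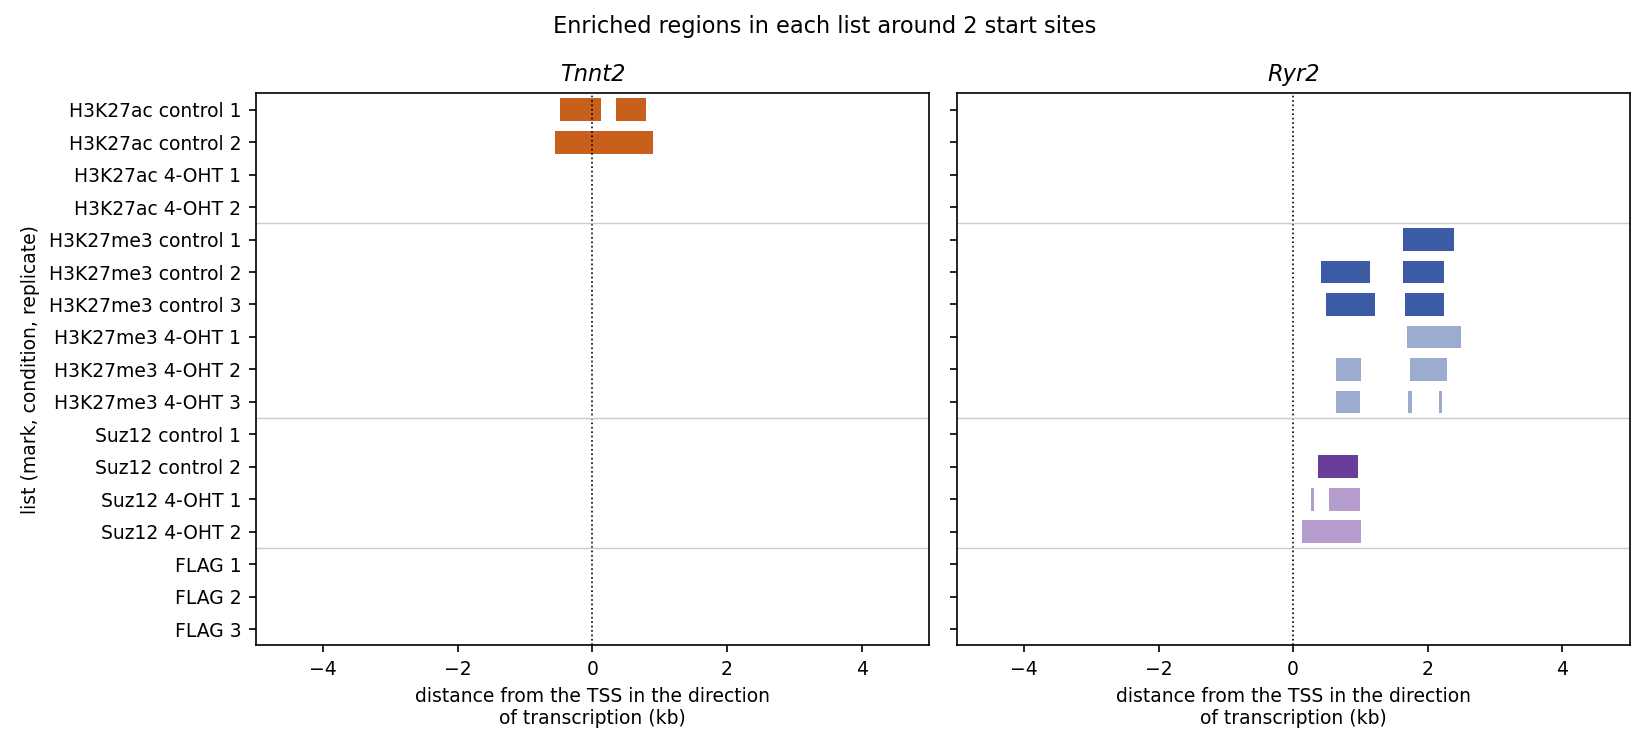
Position of every enriched region within 5 kb of the *Tnnt2* and *Ryr2* TSS, in kb along the direction of transcription, with 1 row per list (full colour for control and FLAG lists, pale for 4-OHT). H3K27ac spans the *Tnnt2* start in both control lists and in neither 4-OHT list, and at *Ryr2* H3K27me3 and Suz12 lie downstream of the TSS, with no Suz12 region in control replicate 1.

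*Tnnc1*, which encodes the calcium-binding subunit of cardiac troponin, had H3K27ac nearby but not over its start. Covered length was 1750 and 1400 bp in control and 2025 and 1775 bp in 4-OHT. Both 4-OHT lists thus had more than both control lists (exact permutation test, p = 0.333), a pattern shown by 39.8% of the 11937 genes with any H3K27ac. The region, chr14:32017851-32019900, has its near edge at -1.60 kb from the TSS and lies at the promoter of *Nisch*, which encodes the imidazoline-binding protein nischarin. The call at *Tnnc1* cannot be separated from that neighbour, and within 2.5 kb of the TSS the 2 conditions overlapped.

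*Tnni3* encodes the adult cardiac form of the inhibitory troponin subunit. The control lists held 300 and 0 bp of H3K27ac and the 4-OHT lists 325 and 250 bp, from a region whose near edge is at -4.12 kb from the chosen TSS. The 2 conditions overlapped (exact permutation test, p = 0.667). A further H3K27ac region lay 8.38 kb downstream, at the promoter of *Tnnt1*, the slow skeletal troponin T gene that sits beside *Tnni3*. It had 525 and 625 bp in control and 125 and 0 bp in 4-OHT, so both 4-OHT lists were below both control lists. Upstream of *Tnnt2* the neighbouring troponin gene is *Tnni1*, the slow skeletal and fetal cardiac form of troponin I. Within 5 kb of its TSS the control lists held 1147 and 1797 bp of H3K27ac and the 4-OHT lists 797 and 447 bp. Apart from a part of the control replicate 2 value, these lengths are the end of 1 acetylated region in a *Tnni1* intron, described below with Brg1, that the window cuts.

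*Ryr2* was the single member with H3K27me3 at its start. The gene spans 554 kb on the minus strand at chr13:11645370-12199212. Within 5 kb of the TSS the control lists covered 750, 1325 and 1300 bp, and the 4-OHT lists 800, 925 and 450 bp. The conditions overlapped, because control replicate 1 was the lowest of its group (two-sided exact permutation test, p = 0.300). That replicate is one of the 2 lists of narrow regions. The limma fit gave a log2 difference of -0.63 (SE 0.61) with an adjusted p of 0.722, beside a median of -0.66 over all 3388 genes fitted. With covered length as a share of each list the median moved to -0.22 and the value of *Ryr2* to -0.14, so its difference was close to that of all genes on both scales.

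The mark formed 2 blocks at *Ryr2*. The farther one, chr13:12196726-12197575, was listed in all 6 H3K27me3 lists, 1.64 kb downstream of the TSS. The nearer one, chr13:12198001-12198800, was 0.412 kb downstream and was missing from replicate 1 of both conditions. Suz12 lay over the nearer block, with 0 and 600 bp in control and 500 and 875 bp in 4-OHT, and so was absent from 1 of 4 lists. Its conditions overlapped (exact permutation test, p = 0.667). The printed *Ryr2* stretch falls in this shared part, and its observed to expected CpG ratio was 0.765. No FLAG list had a region within 5 kb of the *Ryr2* TSS.

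Among thin filament genes, *Actc1* encodes the actin of the heart sarcomere and lies on the minus strand at chr2:113873018-113879284. Its start carried no region in 2 lists of any mark. Upstream of it, at -13.8 kb, an H3K27ac region had 225 and 425 bp in control and 0 and 0 bp in 4-OHT. Beside it, at -14.6 kb, control replicate 2 alone had 275 bp of H3K27ac, and FLAG replicate 2 alone had the 175 bp printed above. Over 50 kb the control lists of *Actc1* had 225 and 825 bp of H3K27ac and the 4-OHT lists 0 bp each. All of the H3K27ac called within 50 kb of *Actc1* was therefore absent from the 4-OHT lists. *Actn2*, the sarcomeric alpha-actinin gene, stood at the other extreme. No list of any mark had a region within 50 kb of its TSS, and the nearest H3K27ac region in both control lists was 54.6 kb away.

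The thick filament genes were also unmarked at their starts. *Myh6* and *Myh7*, the alpha and beta myosin heavy chain genes, lie next to each other on chromosome 14, so their 50 kb windows share regions. None of the 17 lists had a region within 5 kb of either TSS. In their bodies the sole region was one of 50 bp in H3K27me3 control replicate 1, inside *Myh7*. The H3K27ac in their wider windows lay at *Efs* and *Il25* on one side and at *Ngdn* on the other. *Myl2*, the ventricular regulatory light chain gene, was likewise at 0 in all lists within 5 kb. Its nearest H3K27ac region listed in both control replicates, 47.5 kb downstream and more than 2.5 kb from any TSS, had 1425 and 1575 bp in control and 1275 in each 4-OHT list.

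*Myl7*, the atrial regulatory light chain gene, was the single member with a FLAG region near its start. FLAG replicate 1 listed 125 bp at -0.341 kb from the TSS, chr11:5799126-5799250, and replicates 2 and 3 listed nothing there. H3K27ac at *Myl7* was 0 and 350 bp in control and 0 bp in both 4-OHT lists. These regions were each in 1 list, so their presence was not repeated. The FLAG stretch is shown because it is the nearest to any member's start, and capitals mark a match to AGATAA, the letters bound by GATA factors, read on the opposite strand.
Myl7 upstream (chr11:5799126-5799250, minus strand): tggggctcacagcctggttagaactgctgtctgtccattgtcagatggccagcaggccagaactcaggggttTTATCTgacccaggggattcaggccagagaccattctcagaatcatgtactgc

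Gene bodies added little to the starts. H3K27ac was present in the body of 2 of 10 genes (49.6% of all genes), *Tnnt2* and *Ryr2*, H3K27me3 in 1 (13.4%), and Suz12 (6.08%) and Brg1 (5.94%) in 0. The *Tnnt2* body had 574 and 899 bp in control and 0 bp in both 4-OHT lists, which is the downstream part of the region at its start. At *Ryr2* the H3K27ac was small and intronic. It had 300 and 25 bp in control and 600 and 250 bp in 4-OHT, and a region 173 kb downstream of the TSS supplied 100 and 25 bp of the control values.

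**Figure D3:**
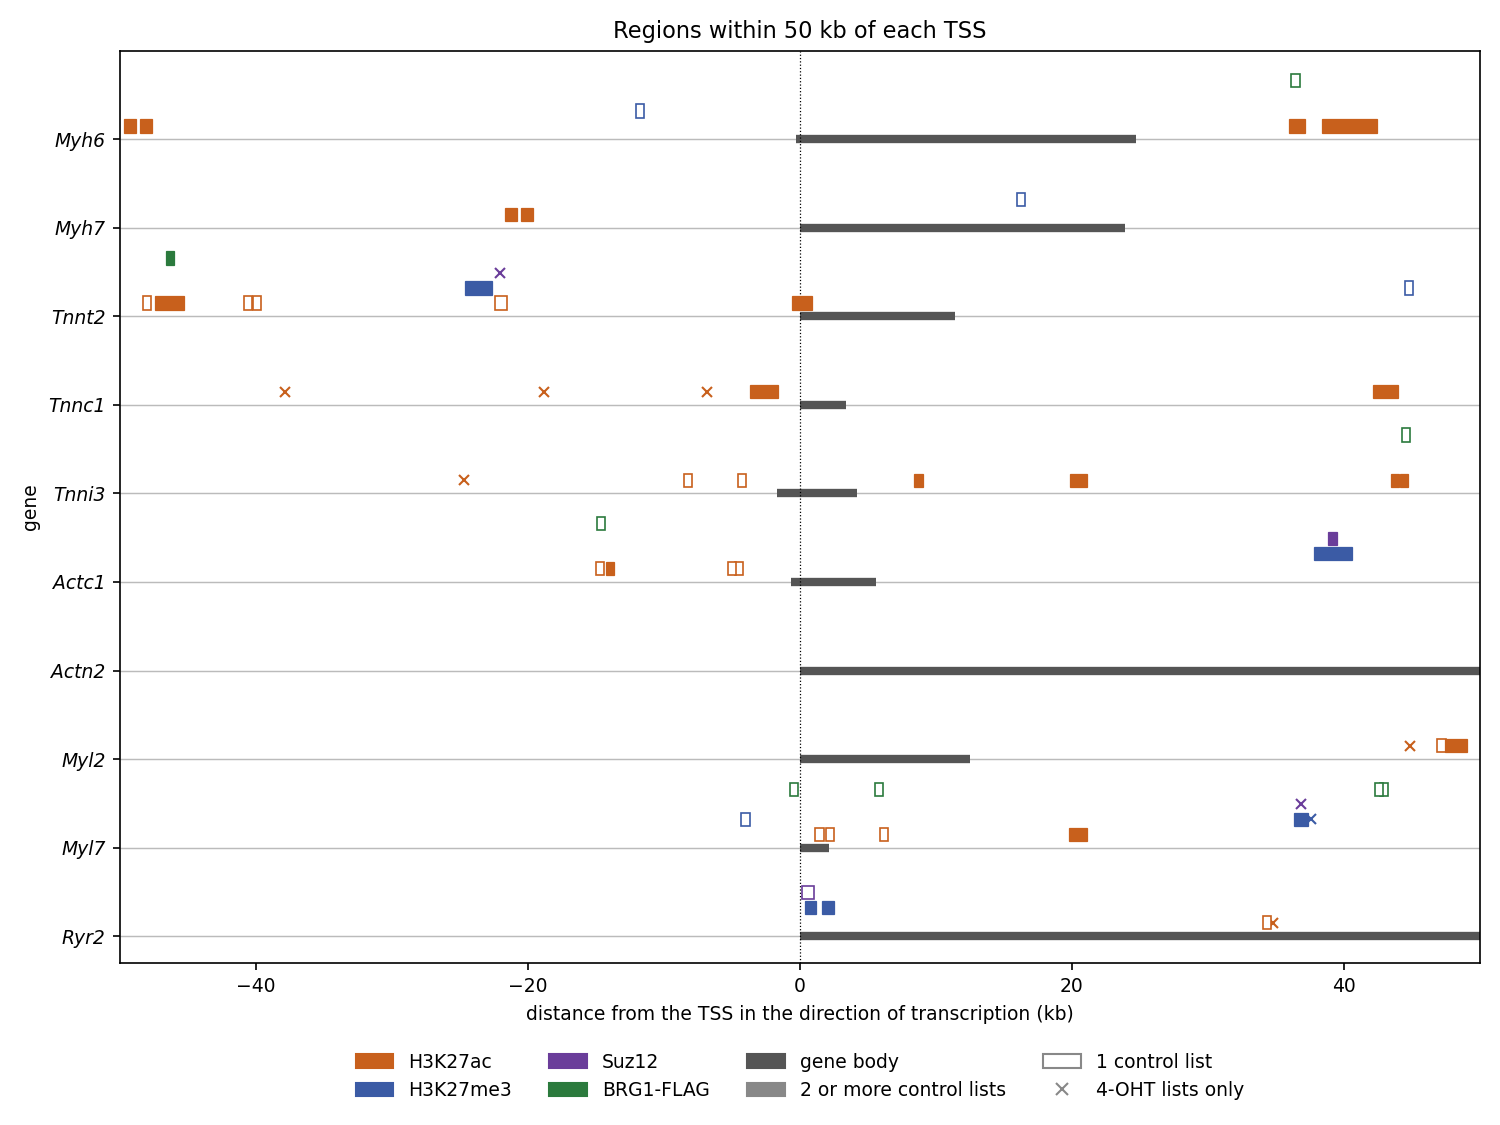
Regions of each mark within 50 kb of each TSS, by distance in kb along the direction of transcription, with gene bodies in grey (regions under 0.6 kb are drawn at that width). Filled boxes are in 2 or more control lists, open boxes in 1 and crosses in 4-OHT lists only, and *Actn2* has no region at all.

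Within 50 kb of the TSS, H3K27ac was present at 8 of 10 genes, all but *Actn2* and *Ryr2* (70.8% of all genes). H3K27me3 was present at *Tnnt2*, *Actc1*, *Myl7* and *Ryr2* (28.6%), Suz12 at *Actc1* (12.4%), and Brg1 at *Tnnt2* and *Myl7* (17.5%). At *Myl7* the Brg1 regions of replicates 1 and 2 were at different positions. Most of the wider signal lay at neighbours. Regions were counted once for each member, so those at *Ngdn* count for both *Myh* genes. Of 17 H3K27ac regions in both control lists, 12 lay within 2.5 kb of the TSS of another protein-coding gene only, and of 5 H3K27me3 regions in at least 2 control lists, 3 did. The H3K27me3 at *Actc1*, for instance, lay at *Gjd2*, a gap junction gene of neurons, with 925, 2175 and 1450 bp in control and 200, 1325 and 325 bp in 4-OHT. Each member's distance to its nearest H3K27ac region in both control lists had a median of 19.7 kb, against 7.83 kb over all genes. The same medians were 115 against 165 kb for H3K27me3, 588 against 490 kb for Suz12 and 318 against 451 kb for Brg1, and none of these differences was tested.

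A single region within 50 kb of a member was bound by Brg1 in 2 replicates at the same position. It lay 46.1 kb upstream of the *Tnnt2* TSS, at chr1:137690851-137691375 in an intron of *Tnni1*, with 425, 500 and 0 bp in FLAG replicates 1 to 3. H3K27ac over it had 2125 and 2025 bp in control and 1700 and 1300 bp in 4-OHT. The acetylated stretch was thus shorter in both 4-OHT lists than in both control lists but was present in all 4. The middle 300 bases shared by FLAG replicates 1 and 2 are printed, with a match to AGATAA on the opposite strand in capitals, since this is the one repeated Brg1 region near the genes described.
Tnni1 intron (chr1:137690926-137691225, plus strand): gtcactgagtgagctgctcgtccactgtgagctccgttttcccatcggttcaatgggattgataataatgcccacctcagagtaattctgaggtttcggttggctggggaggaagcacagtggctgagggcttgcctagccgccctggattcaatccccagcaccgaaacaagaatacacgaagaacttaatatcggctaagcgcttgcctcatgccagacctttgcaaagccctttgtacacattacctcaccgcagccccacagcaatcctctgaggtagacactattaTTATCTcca
Between this region and *Tnnt2*, the promoter of *Lad1*, which encodes the basement membrane protein ladinin 1, had H3K27me3 of 1600, 650 and 1125 bp in control and 600, 225 and 0 bp in 4-OHT. Suz12 near *Lad1* had 0 and 0 bp in control and 200 and 450 bp in 4-OHT.

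Counted over the genes with any region of the mark within 5 kb of the TSS, few members differed between conditions. For H3K27ac, 5 members had a region. Both 4-OHT lists were below both control lists at 1, *Tnnt2* (12.5% of 11937 genes), and above at 1, *Tnnc1* (39.8%). For H3K27me3, 2 members had a region and 0 of them separated the conditions, where 12.0% of 4130 genes were lower and 0.194% higher. Same-numbered H3K27me3 lists deviated together, most clearly for replicate 1. With these lists taken as pairs, 1809 genes (43.8%) were lower in all 3 pairs in place of 496. *Ryr2* was not among them, since replicate 1 went from 750 to 800 bp. For Suz12, 1 member had a region and 0 separated the conditions (5.80% of 2242 genes lower, 32.1% higher). No gene passed an adjusted p of 0.05 in limma for any mark (0% of 11283, 3388 and 1857 genes), with 2348, 231 and 350 genes at an unadjusted p under 0.05.

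Over 50 kb as many members were below as above in H3K27ac, and many of the regions behind these calls lay at neighbouring genes. Of 9 members with a region, both 4-OHT lists were below both control lists at 4, *Tnnt2*, *Tnni3*, *Actc1* and *Myl2* (20.0% of 17126 genes). They were above at 4, *Myh6*, *Myh7*, *Tnnc1* and *Ryr2* (39.5%). *Myh6* and *Myh7* share the regions at *Ngdn* and so are not separate cases, and all H3K27ac regions in their windows lay at other genes. The *Tnni3* window includes the shorter *Tnnt1* region described above. At *Tnnt2* the control lists had 4075 and 4300 bp and the 4-OHT lists 2575 and 2050 bp. At *Myh6* they had 6425 and 6125 bp and 6900 and 6500 bp. H3K27me3 was lower at *Tnnt2* (15.5% of 8443 genes) and Suz12 higher there (30.0% of 4470 genes), both at the *Lad1* promoter described above. With same-numbered H3K27me3 lists compared, a count added after the values were seen, 2 members were lower in all 3 pairs, *Tnnt2* and *Actc1*, beside 48.7% of the same 8443 genes. H3K27me3 was higher at 0 members (0.166%) and Suz12 lower at 0 (5.53%). Where the groups did not overlap, the exact permutation p was 0.333, or 0.100 for H3K27me3 at *Tnnt2*, the smallest the replicates allow. At *Actc1*, where they overlapped, the exact p for H3K27me3 was 0.200.

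The other sarcomere genes of the heart, 20 genes on a list chosen by function, were largely unmarked as well. Neither mark was present at 13 of 20, H3K27ac alone at *Ttn*, *Myl4*, *Tnni1* and *Myom1*, H3K27me3 alone at *Des* and *Nexn*, and both at *Tpm1*. The H3K27me3 calls at *Des* and *Tpm1* rest on short stretches. The control lists had 125, 575 and 0 bp at *Des* and 50, 800 and 0 bp at *Tpm1*. *Tpm1*, the main tropomyosin of the heart and also made in non-muscle cells, had 5410 and 4035 bp of H3K27ac in control and 5685 and 5110 bp in 4-OHT. *Myl4*, the atrial essential light chain gene, had 1525 and 1550 bp in control and 1925 and 2025 bp in 4-OHT. Of 8 of these genes with H3K27ac, both 4-OHT lists were lower at *Ttn* and *Tnni1* and higher at *Myl4*, where 12.5% and 39.8% of all genes with a region were lower and higher. *Nexn*, an actin-binding protein of the Z-disc, had H3K27me3 of 1375, 950 and 775 bp in control and 450, 550 and 100 bp in 4-OHT, with no overlap of the conditions. It was the 1 gene that was lower of 4 with a region, where 12.0% of all genes with H3K27me3 were lower, or 43.8% in all same-numbered pairs.

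Brg1 regions were found near several of these starts. In at least 2 FLAG replicates they were present at *Ttn*, *Tpm1*, *Myl4*, *Tnni1* and *Nexn*, 5 of 20 genes, against 4.00% of all genes and 0 of 10 members, and the difference between the lists was not tested. FLAG replicates 1 and 2 had 297 and 397 bp at *Tnni1*, 150 and 125 bp at *Ttn* and 100 and 200 bp at *Myl4*. The *Tnni1* values are the part inside the window of the intronic Brg1 region described above for *Tnnt2*, and so add no further region. Replicate 3 had 0 bp at all of these genes.

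**Figure D4:**
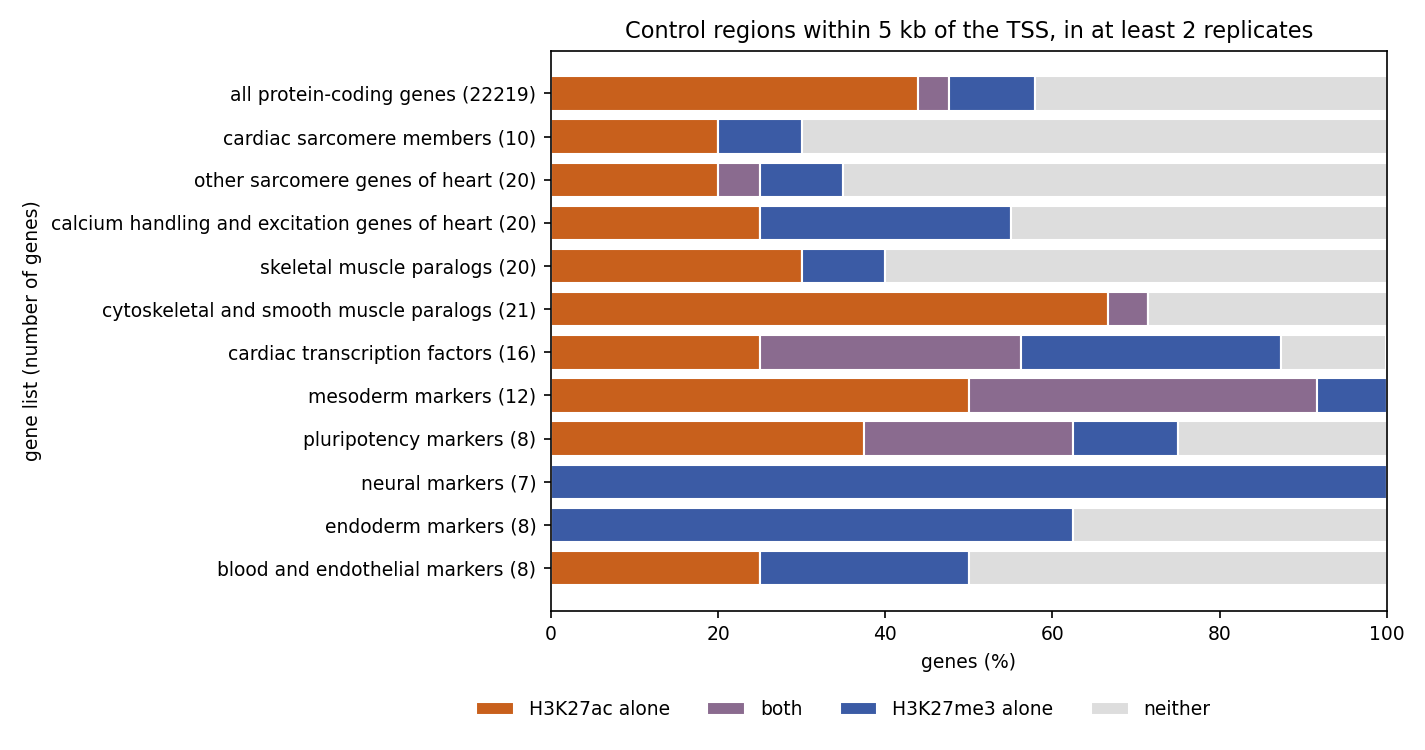
Share of genes (%) in each list with H3K27ac alone, both marks, H3K27me3 alone or neither within 5 kb of the TSS in at least 2 control replicates. Neither mark was found at 70.0% of the cardiac sarcomere members, 65.0% of other sarcomere genes, 45.0% of calcium handling and excitation genes and 42.1% of all genes, and at none of the 12 mesoderm or 7 neural markers.

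Genes that handle calcium and excitation in the heart were divided between the marks. Of 20 genes, 6 had H3K27me3 alone, 5 H3K27ac alone and 9 neither. Both 4-OHT lists of H3K27ac were lower at 2 of 7 with a region (12.5% of all genes) and higher at 1 (39.8%), and H3K27me3 was lower at 2 of 6 (12.0%), *Kcnq1* and *Fabp3*, or at 3 in all same-numbered pairs (43.8%). Suz12 was higher at 4 of 5 with a region, *Cacna1g*, *Hcn4*, *Kcnq1* and *Fabp3*, beside 32.1% of all genes. *Cacna1c*, the L-type calcium channel that triggers Ryr2, had H3K27ac of 3850 and 4625 bp in control and 900 and 1300 bp in 4-OHT. *Atp2a2*, the calcium pump of the sarcoplasmic reticulum, had 1350 and 1500 bp in control and 1375 and 1600 bp in 4-OHT, and *Hrc*, a calcium-binding protein of the same store, had 1875 and 660 bp in control and 2750 and 1525 bp in 4-OHT. Both genes overlapped between conditions. H3K27me3, the mark at *Ryr2*, was thus present at 6 of these 20 genes (30.0%), *Kcnq1* and *Hcn4* among them, beside 14.0% of all genes, and the difference was not tested.

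The members' start sequences held few CpG. The ratio of observed to expected CpG within 500 bp of the TSS had a median of 0.222 over the 10 genes, against 0.555 over 22207 genes. It ran from 0.0809 at *Tnnc1* to 0.727 at *Ryr2*, and 47.2% of genes were at or below *Actn2* (0.515), the next highest. Over all genes the median was 0.748 for H3K27ac alone, 0.680 for H3K27me3 alone, 0.746 for both and 0.213 for neither. The 7 members with neither mark had ratios of 0.133 to 0.515, and *Ryr2*, the member with H3K27me3, had the highest. *Tnnt2* (0.284) and *Tnnc1* (0.0809) carried H3K27ac within 5 kb with ratios below the lower quartile of that class, 0.612. The *Tnnt2* ratio is centred on its start codon, so it may not describe the promoter proper. The H3K27ac counted for *Tnnc1* lies at the *Nisch* promoter, with its near edge at -1.60 kb.

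**Figure D5:**
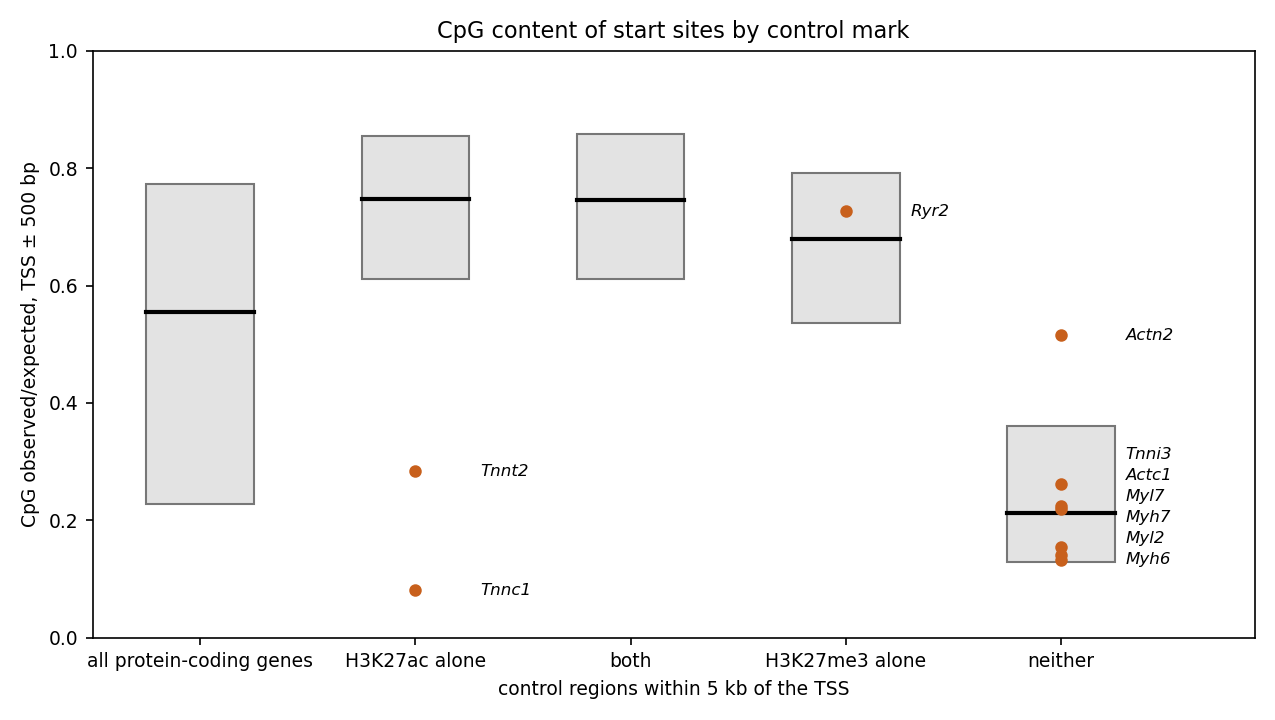
Ratio of observed to expected CpG within 500 bp of the TSS, for all protein-coding genes and by control mark (boxes, quartiles, and lines, medians), with each member as a point in its own class. *Ryr2* (0.727) lies inside the box for H3K27me3, while *Tnnt2* and *Tnnc1* lie below the box for H3K27ac. The *Tnnt2* point is centred on its start codon, and the H3K27ac counted for *Tnnc1* lies at the *Nisch* promoter.

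Short motifs were searched on both strands of the 300 bases from 250 before to 49 after each TSS. The counts depend on the chosen TSS, which for *Tnnt2* is its start codon. TATAAA was found at 1 of 10 members, *Myh6* (13.4% of 22214 promoters), and AGATAA at 0 (10.1%). The MEF2 motif was found at 0 (0.513%). The CArG box, the motif of serum response factor, was found at *Actc1* and *Myl7* (1.46%). CATTCC, the M-CAT letters of TEAD factors, was found at *Myh6*, *Myh7*, *Tnnc1* and *Myl7* (13.2%). AGGTGTGA, read by T-box factors, was found at *Tnni3* (1.07%), AAGTG, the core of the Nkx2-5 motif, at 4 members (45.3%), and the E-box CANNTG at 10 (69.0%). In the promoters of the first actin and myosin genes, capitals mark the TATA box, M-CAT and CArG matches.
Myh6 promoter (chr14:55585395-55585694, minus strand): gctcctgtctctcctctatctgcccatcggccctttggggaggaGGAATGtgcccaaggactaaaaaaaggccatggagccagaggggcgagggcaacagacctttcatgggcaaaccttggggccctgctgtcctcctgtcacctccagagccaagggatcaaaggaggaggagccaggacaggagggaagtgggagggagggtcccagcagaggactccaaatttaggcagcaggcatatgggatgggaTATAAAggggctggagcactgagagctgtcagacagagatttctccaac
Actc1 promoter (chr2:113878574-113878873, minus strand): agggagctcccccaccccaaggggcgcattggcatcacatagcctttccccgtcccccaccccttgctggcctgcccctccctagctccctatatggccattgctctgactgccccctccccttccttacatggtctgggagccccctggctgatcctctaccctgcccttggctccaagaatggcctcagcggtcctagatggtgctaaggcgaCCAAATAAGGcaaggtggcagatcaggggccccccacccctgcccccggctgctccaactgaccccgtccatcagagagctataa
The *Actc1* CArG box begins at position -35 relative to the TSS and the *Myh6* M-CAT match at -206. The *Myh6* TATA box lies 1 base after the annotated TSS, one of 6 start sites annotated for the gene. A match of letters is not evidence of binding, and neither promoter had a region in at least 2 lists of any mark.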

How the data were processed

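ChIP-seq reads were aligned with Bowtie and positions are in mm9, per the labels. The authors deposited 17 lists of enriched regions as chromosome, start and end, in coordinates at steps of 25 bp, called in each replicate over input with a Poissonian model. The track lines carry 1e-06 for FLAG and 1e-12 for the other marks, read as p-value thresholds. The lists hold no score or count, so depth is unknown and a covered length depends on the calling threshold. The 11 inputs were not used here otherwise.

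The TSS of a gene was that of its protein-coding transcript with the longest coding sequence in GENCODE vM1 on NCBIM37 (the mm9 assembly). Covered length was computed within 5 and 50 kb of the TSS and in the gene body. Conditions were compared by two-sided exact permutation tests and, across all genes with a region in at least 2 lists, by limma 3.58.1 (R 4.3.3) on log2(covered bp + 25) with Benjamini-Hochberg adjustment. Nothing in the labels ties replicates beyond their culture and number. Same-numbered H3K27me3 lists deviated together (correlations over 4130 genes of 0.911, 0.823 and 0.768) and were taken as pairs. Control replicate 2 also correlated with 4-OHT replicate 3 (0.591), and control replicate 3 with 4-OHT replicate 2 (0.656). The numbers thus set replicate 1 apart more clearly than replicate 2 from replicate 3. Named genes were all members, for each other list the 3 genes with the longest mean control H3K27ac and H3K27me3, and neighbours with a TSS within 2.5 kb of a described region. Other genes named are those behind a printed count or a Brg1 region, chosen after their values were seen. A gene that this rule names in the calcium handling list is not reported here. Members and lists were chosen with earlier results of these data known. Calculations were tested on simulated data. Python 3.11.15, NumPy 2.4.6 and matplotlib 3.10.9 were used. Of the genes listed, *Myl12a* and *Sox1* were not matched in the annotation.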

Additional observations from a re-analysis of the deposited data

How the results depend on the processing

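The counts of members with a mark at the start depended mostly on the replicate rule. With a region in any replicate they became 5 for H3K27ac, 2 for H3K27me3, 1 for Suz12 and 1 for Brg1. Without each control replicate in turn they ranged from 3 to 4 for H3K27ac, were 1 for H3K27me3, ranged from 0 to 1 for Suz12 and were 0 for Brg1. A window of 1 kb left 1 member with H3K27ac, *Tnnt2*. Regions at least 200 bp wide left 1 member with H3K27ac in the gene body. A window of 25 kb gave 2 members with H3K27me3, 0 with Suz12 and 0 with Brg1, and 100 kb gave 3 with Suz12 and 4 with Brg1. *Tnnt2* stayed lower in every alternative tried for its covered length, by 1050 to 1450 bp with each replicate left out.

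Within 10 kb, 2 members had less H3K27ac after 4-OHT, and *Tnni3* changed sign to -375 bp because the *Tnnt1* region enters the window. Within 2.5 kb, 0 members had more. With each replicate left out, 1 to 3 members had less H3K27ac and 1 to 2 more, 0 to 1 had less H3K27me3 (*Ryr2*, without control replicate 1) and 0 to 1 had more Suz12. Leaving replicate 1 of both conditions out of H3K27me3, an alternative chosen after seeing the data, also gave 1, *Ryr2*, with a difference of -625 bp. Shares of all genes were not computed under these windows and omissions, so these member counts have no background beside them.

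With the replicate block, taking same-numbered lists as pairs, 2 members had more H3K27ac and 1 more Suz12. Where the groups had to be apart, 39.8% and 32.1% of all genes with a region already had more of these marks. Within 50 kb the block gave 2 members with less H3K27me3 in place of 1, beside 48.7% of all genes with a region. Over all genes the block gave 1809 with less and 34 with more H3K27me3 and 271 with less Suz12, against 496, 8 and 130 where the groups had to be apart. For H3K27ac and Suz12 the number is shared by only 2 pairs, with correlations of 0.442 and 0.507, and is not shown to pair them. The limma block made no call.

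Limma called 0 genes for each mark. With covered length as a share of each list it called 31 lower and 2 higher for H3K27ac and 8 lower and 140 higher for Suz12. With each replicate left out, assuming the lone list varies like the other group, calls ranged from 0 to 238 lower and 0 to 30 higher for H3K27ac and from 0 to 8 lower and 0 to 267 higher for Suz12, and were 0 for H3K27me3. The cause was not tested. With no depth in the lists, an absent region cannot be told from one just under the threshold.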

Other observations

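Paralogs of the members outside the heart differed among themselves. Among 21 cytoskeletal and smooth muscle paralogs, 14 had H3K27ac alone within 5 kb of the TSS, 1 had both marks and 6 had neither. *Actb*, the cytoplasmic actin related to *Actc1*, had 5218 and 5600 bp of H3K27ac in control and 6093 and 5725 bp in 4-OHT. *Myh9*, a non-muscle myosin heavy chain gene, had 6351 and 6426 bp in control and 6471 and 6371 bp in 4-OHT. Of 17 of these genes with a region, both 4-OHT lists were lower than both control lists at 3 and higher at 6, against 12.5% and 39.8% of all genes with H3K27ac. The contractile smooth muscle genes *Acta2*, *Myh11* and *Cnn1*, named here after their values were seen, were among the 6 with neither mark. *Tagln*, another smooth muscle gene of the list, had H3K27ac alone and was among the 3 that were lower, with *Actn1* and *Myh14*.

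Among 20 skeletal muscle paralogs, 12 had neither mark. H3K27ac was present at 6, *Actn3*, *Mylpf*, *Tnnt1*, *Tnnt3*, *Casq1* and *Atp2a1*. Of 7 with a region, both 4-OHT lists were lower at *Tnnt1*, *Tnnt3* and *Atp2a1* and higher at *Mybpc2*, against the same 12.5% and 39.8%. *Tnnt3*, the fast skeletal troponin T gene, had 1300 and 1600 bp in control and 725 and 575 bp in 4-OHT. *Mylpf*, a fast skeletal myosin light chain gene, had 2554 and 1825 bp in control and 2525 and 2425 bp in 4-OHT, and overlapped. H3K27me3 was present at 2, *Acta1* and *Cacna1s*, and overlapped between conditions at both. *Acta1* had 0, 875 and 850 bp in control and 175, 1475 and 1275 bp in 4-OHT. It was higher in all same-numbered pairs, a pattern shown by 0.823% of 4130 genes. Suz12 was higher at 2 of 2 with a region, the same 2 genes, beside 32.1% of all genes.

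H3K27me3 was present at 10 of 16 cardiac transcription factors, beside 14.0% of all genes, 1 of 10 members and 3 of 20 other sarcomere genes, and the difference between the lists was not tested. *Nkx2-5* had 5601, 10001 and 10001 bp of it in control and 4060, 10001 and 9776 bp in 4-OHT. A value of 10001 bp fills the whole window, so a difference between such lists cannot show here. Of 10 factors with H3K27me3, the 4-OHT lists were all below the control lists at 1, *Isl1* (12.0% of all genes with a region), and above at 0 (0.194%). In all same-numbered pairs 4 were lower, *Gata5*, *Gata6*, *Tbx5* and *Isl1* (43.8%). Of 12 factors with H3K27ac, both 4-OHT lists were lower at *Gata4* and *Srf* and higher at *Mef2b*, *Myocd* and *Tead1*, against 12.5% and 39.8% of all genes. *Gata4* had 4468 and 5418 bp in control and 2875 and 4368 bp in 4-OHT. *Mef2d*, with the longest H3K27ac of the list, had 6382 and 5525 bp in control and 6382 and 5957 bp in 4-OHT.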
